A study of Mus musculus with 4 samples.

Results

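The respiratory chain of the mouse myoblast line C2C12 was followed through 98 genes with symbols of subunits of complexes I to V, of 49585 genes in the count files. The complex of each gene was read from its symbol alone, so a gene counted in a complex need not be a subunit of it. Members were taken by gene symbol, as the Nduf, Sdh, Uqcr, Cox4 to Cox8 and Atp5 genes of the nucleus and the protein-coding genes of the mitochondrial genome, without symbols marked as pseudogenes. The nucleus encodes 85 of them, with 36 in complex I, 4 in complex II, 8 in complex III, 19 in complex IV and 18 in complex V. The mitochondrial genome encodes 13, with 7 in complex I, 1 in complex III, 3 in complex IV and 2 in complex V. The choice used symbols and no measured value.

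Electrons from NADH enter the respiratory chain at complex I and electrons from succinate at complex II, and both pass by ubiquinone to complex III and by cytochrome c to complex IV, where oxygen is reduced. Complexes I, III and IV pump protons across the inner mitochondrial membrane, and complex V, the ATP synthase, uses their return to make ATP. All of these except complex II are assembled from proteins of both genomes. Muscle cells raise their respiratory capacity as they differentiate from myoblasts into contractile fibres.

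All cells were C2C12, a line of the C3H strain, grown in medium with 10% fetal bovine serum. In 2 libraries the cells had received a retrovirus that overexpresses C/EBPβ, a leucine-zipper transcription factor, and in 2 libraries the empty retroviral vector pLXSN. Both groups went through 7 days of selection in 1200 μg/ml G418, were kept as pools of stably transduced cells rather than clones, and proliferated for 48 h before total RNA was taken for strand-specific mRNA sequencing. The comparison asks which transcripts differ when C/EBPβ is forced in growing myoblasts. Nothing in the labels says that replicates are separate transductions or cultures, and p-values therefore cover the spread between these 4 libraries only, which may be technical.

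The C/EBPβ libraries held 38656497 and 92027838 counts assigned to genes, and the empty vector libraries 40912955 and 37566321. Cebpb itself averaged 478 CPM in C/EBPβ cells and 80.9 CPM in empty vector cells (log2 fold change 2.56, edgeR adjusted p = 3.03e-06), where CPM are counts scaled by the library's total and its TMM factor in edgeR. All 10 myoblast markers passed the filter on low counts in these myoblast libraries, 3 of them called higher and 6 lower in C/EBPβ cells. Over all genes tested, the background for each marker list here, 14.1% were called higher and 10.8% lower. Pax7, Myf5 and Ncam1 were higher, and Myog, Itga7, Cdh15, Chrna1, Des and Myod1 lower. The largest log2 fold changes in each direction were 0.94 for Pax7 and -2.75 for Myog, with 5.32 and 10.9 CPM of Myog in C/EBPβ libraries and 61.0 and 51.4 CPM in empty vector libraries. The 8 markers of fibroblasts and fibro-adipogenic cells summed to 1291 and 876 CPM in C/EBPβ libraries and to 553 and 476 CPM in empty vector libraries. Of 7 tested, 4 were called higher and 1 lower, and Lum had no more than 1 count in any library. Among those called higher, Dpt passed the filter only through the C/EBPβ libraries. Among 12 leukocyte markers, 5 were tested and 4 of these called higher in C/EBPβ cells, while Cd52, Tyrobp, Itgam and Adgre1 had 0 counts in all 4 libraries. Of the leukocyte markers called higher, Lyz2 and Cd74 passed the filter only through the C/EBPβ libraries. Of the fat cell markers only Fabp4 passed the filter, through the C/EBPβ libraries alone, and it was called higher. Fabp4 had 358 and 488 counts in C/EBPβ libraries and 10 and 4 counts in empty vector libraries. Of 4 brown fat markers Dio2 was called higher (29.3 and 21.0 CPM in C/EBPβ libraries, 8.92 and 12.8 CPM in empty vector libraries, edgeR adjusted p = 0.00342). Elovl3 was not called, and Ucp1 and Cidea had 0 counts. The part of these marker changes in the results below was not tested.

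In C/EBPβ myoblasts, transcripts of most nuclear subunits were somewhat less abundant when all 4 libraries were used, and few of the differences passed the test. Of 79 nuclear members with enough counts, 7 fell and 1 rose (quasi-likelihood test of edgeR, Benjamini-Hochberg adjusted p under 0.05 over all genes tested), which is 10.1% of them, against 24.9% of all 15078 genes tested. By direction, 8.86% of the nuclear members fell, against 10.8% of all genes, and 1.27% rose, against 14.1% of all genes. The genes that fell were Uqcrfs1, Cox8b, Sdhb, Sdhd, Atp5g3, Atp5b and Atp5d, and the gene that rose was Ndufb7. Cox8b had at most 13 counts in a library and passed the filter on low counts only through the empty vector libraries, so that 6 well-counted members fell. The fitted log2 fold change of C/EBPβ over empty vector was below 0 for 61 nuclear members, or 77.2% against 49.9% of all genes, and above 0 for 18. With empty vector replicate 1 left out, 43 were below 0 and 36 above, and with empty vector replicate 2 left out, 74 were below and 5 above. With all 4 libraries, the median of the nuclear members was -0.12, where the median over all genes tested was 0.00. That background is not matched for length, and 56 of 78 members have under 600 coding bases. Among protein-coding genes with at least 5 CPM, the median was -0.04 under 300 coding bases and -0.07 from 300 to 600. It was -0.08 from 600 to 900 and 0.06 from 3000 on. In bulk RNA, less RNA per cell and fewer cells with a high level cannot be told apart.

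Both C/EBPβ libraries lay below both empty vector libraries for 36 nuclear members, which is 45.6% of those tested, against 32.9% of all genes tested. For 5 members both lay above, against 33.3% of all genes, and for 38 the groups overlapped. Over both directions 66.2% of all genes had groups apart. Among the 76 nuclear members that averaged at least 5 CPM in the empty vector, the folds ran between 0.714 and 1.42, with standard errors of 0.08 to 0.13 on the log2 scale. The 7 calls among them are thus changes of less than 1.5-fold. When the test was made against a 1.2-fold change, Uqcrfs1 was the one well-counted member still called, beside Cox8b with its few counts, where 14.7% of all genes were called.

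**Figure D1:**
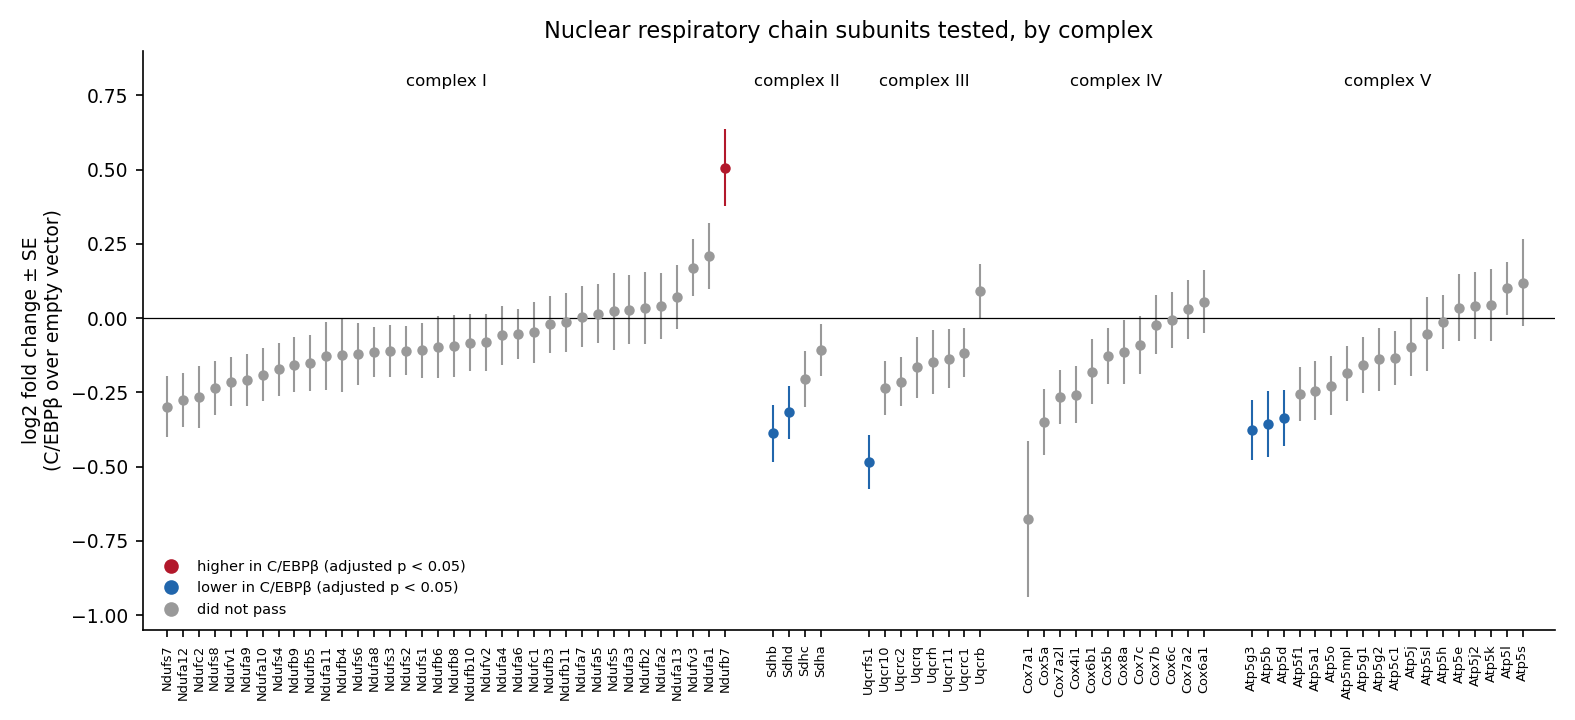
Log2 fold change of C/EBPβ over empty vector with its standard error (y axis) for 78 tested nuclear subunits by complex (x axis), leaving out Cox8b, whose counts were too few for the scale. Most points lie below 0, and the coloured points are 6 subunits called lower and Ndufb7, called higher.

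The stretches before the starts of the 4 called members with the smallest adjusted p are shown because a factor that acts on them directly could bind there. They are RefSeq sequences of GRCm38.p6, from 250 bases before the start to 30 bases after it, at chr13:30545287-30545566 on the minus strand for Uqcrfs1, chr7:140900417-140900696 on the minus strand for Cox8b, chr4:140961021-140961300 on the plus strand for Sdhb and chr8:83566508-83566787 on the plus strand for Ndufb7. Capitals mark a match to TTGCNNAA, the C/EBP motif, in Uqcrfs1, and to CCGGAAG, the ETS motif bound by GABPA, in Sdhb and Ndufb7.
Uqcrfs1: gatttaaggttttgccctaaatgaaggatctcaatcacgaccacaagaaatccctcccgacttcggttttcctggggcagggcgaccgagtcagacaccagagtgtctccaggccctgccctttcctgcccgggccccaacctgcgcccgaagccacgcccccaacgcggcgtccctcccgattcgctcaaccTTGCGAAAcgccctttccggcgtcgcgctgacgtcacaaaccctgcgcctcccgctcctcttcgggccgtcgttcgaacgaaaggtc
Cox8b: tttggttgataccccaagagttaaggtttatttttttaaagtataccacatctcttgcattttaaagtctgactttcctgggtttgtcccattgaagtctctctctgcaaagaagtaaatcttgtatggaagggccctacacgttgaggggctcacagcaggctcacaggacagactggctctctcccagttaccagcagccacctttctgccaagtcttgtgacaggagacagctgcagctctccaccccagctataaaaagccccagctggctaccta
Sdhb: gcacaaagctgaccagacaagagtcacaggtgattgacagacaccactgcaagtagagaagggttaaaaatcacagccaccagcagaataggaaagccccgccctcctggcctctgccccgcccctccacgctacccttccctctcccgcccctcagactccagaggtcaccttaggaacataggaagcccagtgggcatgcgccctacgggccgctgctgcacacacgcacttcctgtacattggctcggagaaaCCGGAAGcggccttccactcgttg
Ndufb7: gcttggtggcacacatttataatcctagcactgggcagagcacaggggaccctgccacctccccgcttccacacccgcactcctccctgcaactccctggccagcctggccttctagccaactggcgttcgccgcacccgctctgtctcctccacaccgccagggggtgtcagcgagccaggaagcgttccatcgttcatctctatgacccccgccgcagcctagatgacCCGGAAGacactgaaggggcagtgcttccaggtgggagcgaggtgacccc
The C/EBP match of Uqcrfs1 covers positions -57 to -50, counted with the first base of the transcript as 0, and the ETS match lies at 6 to 12 in Sdhb and at -20 to -14 in Ndufb7. None of the 5 motifs searched on both strands was found in the Cox8b window.

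Windows of 300 bases, from 250 before the start to 50 after it, were on hand for 64 of the tested nuclear members. The C/EBP motif TTGCNNAA stood in 8 of them, or 12.5%, against 12.2% of all 27025 genes with a window and 9.85% of the 10324 of these that were tested. Besides Uqcrfs1, the members with it were Atp5d, Cox6a1, Ndufa4, Ndufa5, Ndufs5, Sdha and Uqcrh. Of these 8, Uqcrfs1 and Atp5d were called, where 24.9% of all genes tested and 10.1% of the nuclear members were called. The NRF1 motif GCGCATGCG was in 12.5% of members and 4.03% of tested genes, the ETS motif CCGGAAG in 16 of the 64 members and 19.46% of tested genes, the YY1 motif AAGATGGC in 14.06% of members and 5.21% of tested genes, and the ERR site AAGGTCA in 12.5% of members and 3.84% of tested genes. Factors of these families are known regulators of nuclear genes for respiration. None of Nrf1, Gabpa, Yy1 and Esrra passed the test. On the log2 scale Nrf1 lay at -0.19 ± 0.08 (SE, edgeR adjusted p = 0.121), Gabpa at -0.17 ± 0.09 (adjusted p = 0.199), Yy1 at -0.08 ± 0.08 (adjusted p = 0.514) and Esrra at -0.04 ± 0.08 (adjusted p = 0.791). A motif match is a description of the sequence only.

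Complex I, the largest of the complexes, had a single call. Of its 36 nuclear members, all tested, 1 rose and none fell, against 14.1% and 10.8% of all genes tested. The median log2 fold change was -0.10. Both C/EBPβ libraries lay below both empty vector libraries for 12 members, against 32.9% of all genes, and above them for 3, against 33.3%. For 21 members the groups overlapped. Ndufb7, an accessory subunit of the membrane arm on chr8:83566671-83571626, had 133 and 124 CPM in C/EBPβ libraries, against 103 and 77.3 CPM in empty vector libraries. Both C/EBPβ values were above both empty vector values, although the empty vector libraries differed between themselves. Ndufb7 rose with a log2 fold change of 0.51 ± 0.13 (SE, edgeR adjusted p = 0.0217), and it kept its call with each of the 4 libraries left out in turn, while the test against a 1.2-fold change did not call it (adjusted p = 0.0941).

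Other complex I subunits did not pass. Ndufs7, a core subunit that carries an iron-sulfur cluster, had 59.6 and 61.6 CPM in C/EBPβ libraries and 81.5 and 67.5 CPM in empty vector libraries, the lowest log2 fold change of the nuclear members of the complex (-0.30 ± 0.10, SE, edgeR adjusted p = 0.0680). Its groups did not overlap, and it was called lower with empty vector replicate 2 left out (-0.43, adjusted p = 0.0139), as it was with no filter on low counts (adjusted p = 0.0338). Per kilobase of summed exon length, the most abundant were the accessory subunit Ndufb9, at a mean of 221 CPM per kb in C/EBPβ and 247 in empty vector, and Ndufa4, at 166 and 172. Ndufa4, which is now placed in complex IV on structural grounds, had a log2 fold change of -0.06 ± 0.10 (SE), and Ndufb9 of -0.16 ± 0.09.

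Complex II oxidises succinate for both the citric acid cycle and the respiratory chain, and all of its subunits are nuclear. Each of its 4 members was lower in both C/EBPβ libraries than in both empty vector libraries, as were 32.9% of all genes tested. Of the 4 members 2 fell, where 10.8% of all genes fell, and the median log2 fold change was -0.26. Sdhb, the iron-sulfur subunit on chr4:140961203-140979193, had 89.2 and 98.5 CPM in C/EBPβ libraries and 131 and 115 CPM in empty vector libraries. It fell with a log2 fold change of -0.39 ± 0.10 (SE, edgeR adjusted p = 0.0195). Sdhd, a membrane anchor on chr9:50596357-50603812, had 118 and 127 CPM in C/EBPβ libraries and 160.3 and 144 CPM in empty vector libraries. Its log2 fold change was -0.32 ± 0.09 (SE, adjusted p = 0.0335), a fold of 0.803.

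The remaining members of complex II did not pass the test. Sdhc, the other membrane anchor, had 133 and 146 CPM in C/EBPβ libraries against 169.9 and 152 CPM in empty vector libraries (log2 fold change -0.21, edgeR adjusted p = 0.149). Sdha, the flavoprotein that binds succinate, had 264 and 284 CPM in C/EBPβ libraries and 287 and 302 CPM in empty vector libraries (log2 fold change -0.11, adjusted p = 0.420). The size of the log2 fold change thus differed among subunits of this one enzyme from -0.11 to -0.39, and the differences between subunits were not tested. Sdhb no longer passed with C/EBPβ replicate 1 left out (edgeR adjusted p = 0.142) or with empty vector replicate 1 left out (0.0647). Sdhd no longer passed with C/EBPβ replicate 1 (adjusted p = 0.264), C/EBPβ replicate 2 (0.0542) or empty vector replicate 1 (0.0921) left out. Both stayed below 0 in each of these fits.

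Complex III passes electrons from ubiquinol to cytochrome c. Of its 8 nuclear members 1 fell, against 10.8% of all genes tested. A log2 fold change below 0 was seen in 7, against 49.9% of all genes, and the median was -0.16. Uqcrfs1, the Rieske iron-sulfur protein on chr13:30540308-30545362, had 84.4 and 96.6 CPM in C/EBPβ libraries, against 130.0 and 124 CPM in empty vector libraries. The groups were well apart, and its log2 fold change of -0.49 ± 0.09 (SE, edgeR adjusted p = 0.00598), a fold of 0.714, was the largest among the members above 5 CPM that fell. Without C/EBPβ replicate 1 its adjusted p was 0.0502, just above the threshold, at a log2 fold change of -0.39. Uqcrb, a small subunit near the quinone site, was the only nuclear member of the complex above 0, with 59.8 and 61.1 CPM in C/EBPβ libraries and 60.8 and 52.8 CPM in empty vector libraries (log2 fold change 0.09, adjusted p = 0.531). A near-identical copy matches 62.8% of the Uqcrb transcript, so its count is uncertain. Uqcrh, the hinge protein that binds cytochrome c1, and the small subunit Uqcr11 were among the most abundant per length, with log2 fold changes of -0.15 ± 0.11 and -0.14 ± 0.10 (SE).

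**Figure D2:**
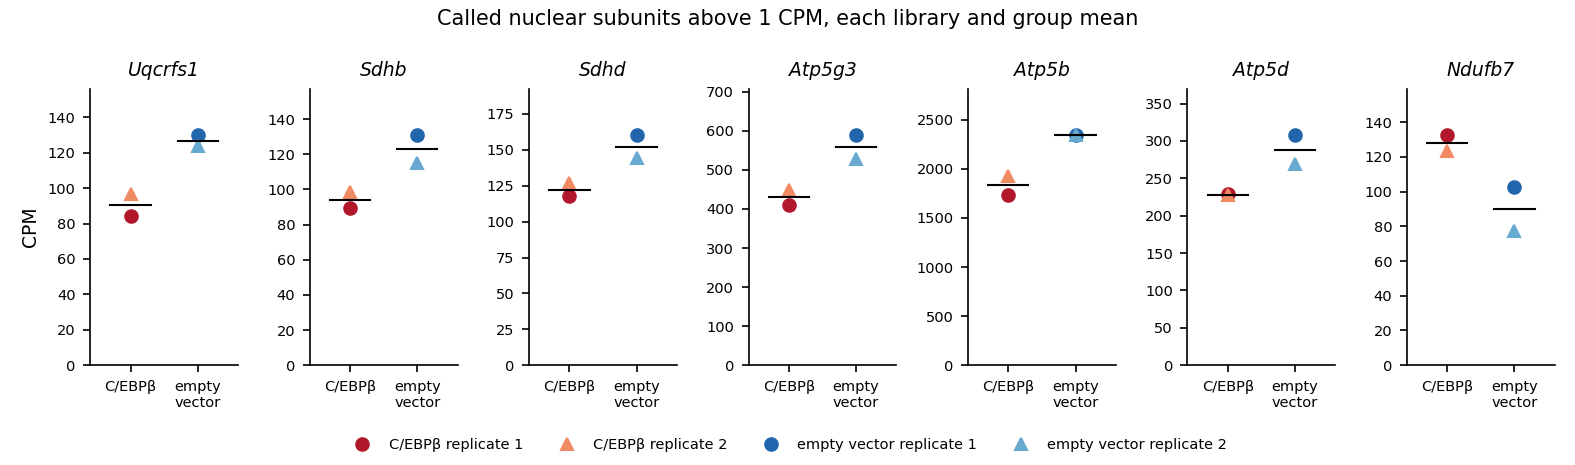
CPM (y axis, a separate scale from 0 in each panel) of the 7 called nuclear subunits above 1 CPM in each library, with C/EBPβ libraries left of empty vector libraries and the group mean as a bar. In every panel the groups are apart, with Ndufb7 the one that is higher in C/EBPβ, at 133 and 124 against 103 and 77.3 CPM.

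Complex IV, cytochrome c oxidase, has several subunits with paralogs that take the same place in different tissues. Of its 19 nuclear members 13 were tested, 1 fell, against 10.8% of all genes tested, and the median log2 fold change was -0.13. Cox8b, the form known from heart and skeletal muscle, on chr7:140898945-140900446, had 0 and 4 counts in C/EBPβ libraries against 13 and 13 counts in empty vector libraries. The ratio of C/EBPβ to empty vector, relative to library totals, was 0.0924 with a 95% interval of 0.0234 to 0.266 that covers counting error only. Cox8b was called lower (edgeR adjusted p = 0.00753), but it passed the filter only through the empty vector libraries. With 1 of them left out it no longer passed (adjusted p = 0.0520 for replicate 1 and 0.0555 for replicate 2).

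Cox8b was a trace beside Cox8a, the form of most tissues, which had 100.1 and 96.9 CPM in C/EBPβ libraries and 118 and 95.1 CPM in empty vector libraries (log2 fold change -0.11 ± 0.11, SE, edgeR adjusted p = 0.490). Counted per length over Cox8a, Cox8b and Cox8c together, Cox8b made up 0% and 0.0680% in C/EBPβ libraries and 0.404% and 0.544% in empty vector libraries. Cox8c, a testis form, had 0 counts in every library. Cox7a1, the heart and skeletal muscle form of subunit 7a, had 0.865 and 0.675 CPM in C/EBPβ libraries and 1.26 and 1.14 CPM in empty vector libraries. Its groups did not overlap, and its log2 fold change of -0.68 ± 0.26 (SE) did not pass (adjusted p = 0.0996).

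The broadly expressed forms carried nearly all of complex IV. Cox7a2 made up 74.42% and 75.03% of the subunit 7a transcripts per length in C/EBPβ libraries and 71.0% and 69.9% in empty vector libraries, beside the supercomplex factor Cox7a2l at 24.6% and 24.2% in C/EBPβ and 27.8% and 28.8% in empty vector. Cox7a2 itself had a log2 fold change of 0.03 ± 0.10 (SE) and Cox7a2l of -0.27 ± 0.09 (edgeR adjusted p = 0.0668), and neither passed. Cox4i1 had 285 and 302 CPM in C/EBPβ libraries and 372 and 330.3 CPM in empty vector libraries (log2 fold change -0.26, adjusted p = 0.0856). Cox5a had the lowest log2 fold change of the nuclear members of the complex above 5 CPM, and it did not pass (-0.35 ± 0.11, SE, edgeR adjusted p = 0.0527). It had 145 and 161 CPM in C/EBPβ libraries and 214 and 175 CPM in empty vector libraries. DESeq2 called it lower, as did the fits with library totals only and with no filter on low counts, while limma-voom did not. Cox5a was also called with C/EBPβ replicate 2 or with empty vector replicate 2 left out. For Cox6a1 the fold change was 0.06 ± 0.11, for Cox6b1 -0.18 ± 0.11 and for Cox7b -0.02 ± 0.10 (log2, SE), with groups that overlapped or lay close. Without empty vector replicate 2, Cox4i1 (adjusted p = 0.0422), Cox6b1 (adjusted p = 0.0319) and Cox7a2l (adjusted p = 0.0273) were called lower.

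The other paralogs of complex IV were at the floor. Cox6a2, the heart and skeletal muscle form of subunit 6a, had 3 and 14 counts in C/EBPβ libraries and 3 and 6 in empty vector libraries. Cox4i2, known from lung and from low oxygen, had 3 and 12 counts in C/EBPβ and 3 and 2 in empty vector. Cox6b2, a testis form, had 4 and 1 counts in C/EBPβ libraries and 0 and 2 in empty vector libraries, and Cox7b2 had 1 and 2 counts in either group. Cox6c2, which the GENCODE M21 annotation lists as a processed pseudogene, had 7 and 9 counts in C/EBPβ and 6 and 2 in empty vector. At this depth no difference was detectable for these genes, and none entered the test.

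Complex V held the most abundant nuclear transcripts. Of its 18 nuclear members 3 fell, against 10.8% of all genes tested. A log2 fold change below 0 was seen in 13, against 49.9% of all genes, and the median was -0.14. Atp5b, the catalytic beta subunit on chr10:128083273-128090391, was the highest of all nuclear members per length, at a mean of 432 CPM per kb in C/EBPβ and 553 in empty vector. It had 1735 and 1926 CPM in C/EBPβ libraries, against 2345 and 2345 CPM in empty vector libraries. The empty vector libraries were nearly equal, and Atp5b fell with a log2 fold change of -0.36 ± 0.11 (SE, edgeR adjusted p = 0.0491). Atp5a1, the alpha subunit that alternates with beta in the catalytic head, had 699 and 766 CPM in C/EBPβ libraries and 881 and 855 CPM in empty vector libraries, and its log2 fold change of -0.24 ± 0.10 did not pass (adjusted p = 0.111). DESeq2 called Atp5a1 lower (adjusted p = 0.04175), as did the authors' deposited table (adjusted p = 0.00733), while limma-voom did not (adjusted p = 0.0769).

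Atp5d, the delta subunit of the rotating stalk on chr10:80138632-80145818, had 229 and 228 CPM in C/EBPβ libraries and 308 and 268 CPM in empty vector libraries. It fell with a log2 fold change of -0.34 ± 0.09 (SE, edgeR adjusted p = 0.0329). Atp5s, known as coupling factor B and counted here by its symbol, was the largest change upwards among the nuclear members set in the complex. It had 5.50 and 5.34 CPM in C/EBPβ libraries and 4.91 and 5.07 CPM in empty vector libraries, and it did not pass (log2 fold change 0.12, adjusted p = 0.605). Single libraries decided the calls in complex V. Atp5d no longer passed with C/EBPβ replicate 1 (adjusted p = 0.114), C/EBPβ replicate 2 (0.0951) or empty vector replicate 1 (0.0907) left out. Atp5b no longer passed with C/EBPβ replicate 1 (adjusted p = 0.241), empty vector replicate 1 (0.111) or empty vector replicate 2 (0.101) left out.

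The membrane ring of ATP synthase is built from subunit c, which Atp5g1, Atp5g2 and Atp5g3 encode as precursors with the same mature protein. Atp5g3, on chr2:73908447-73911326, had 410.1 and 449.8 CPM in C/EBPβ libraries and 589 and 528 CPM in empty vector libraries. It fell with a log2 fold change of -0.38 ± 0.10 (SE, edgeR adjusted p = 0.0273), but not with C/EBPβ replicate 1 (adjusted p = 0.166) or empty vector replicate 1 (0.0907) left out. Neither Atp5g1, at -0.16 ± 0.09 on the log2 scale (adjusted p = 0.270), nor Atp5g2, at -0.14 ± 0.11 (adjusted p = 0.383), passed. Per length Atp5g3 made up 80.1% and 82.5% of the subunit c transcripts in C/EBPβ libraries and 83.3% and 84.1% in empty vector libraries. Of these genes, Atp5g2 shares 88.2% of its transcript with a near-identical copy. Atp5g1 matches a copy over 411 bases at 99.8% identity, which is 8.7% of its long transcript, beside a coding length of 408 bases. The counts of Atp5g1 and Atp5g2, and with them the shares per length, are therefore uncertain.

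Summed over members, the complexes kept their order in every library. Complex V summed to 4341 and 4694 CPM in C/EBPβ libraries, against 5629 and 5314 CPM in empty vector libraries, and complex II to 604 and 655 CPM against 749 and 714 CPM. Both C/EBPβ sums lay below both empty vector sums for complexes II, III and V. The complex V sums averaged 4517 CPM in C/EBPβ and 5471 CPM in empty vector. Atp5b alone took 1831 and 2345 CPM of them. For complex I the sums were 2801 and 2862 CPM in C/EBPβ libraries and 3186 and 2802 CPM in empty vector libraries, and for complex IV 1453 and 1487 CPM in C/EBPβ libraries and 1746 and 1475 CPM in empty vector libraries. There the second empty vector library lay within the range of the C/EBPβ libraries.

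None of the mitochondrially encoded subunits passed the test. Of 13 members 12 were tested and 0 were called by edgeR's quasi-likelihood test, where it called 24.9% of all genes tested. In that test 0 had an unadjusted p under 0.05, where 5556 of all 15078 genes tested had one. DESeq2 and limma-voom called 0 where they called 23.5% and 24.9% of all genes. The groups overlapped for all 12, as they did for 5094 of all 15078 genes tested. The median log2 fold change was 0.04, and 0.21 over the 7 members with at least 20 CPM in every library. Nuclear and mitochondrial subunits were not tested against each other. The standard errors of these 7 members were 0.17 to 0.21 on the log2 scale.

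The mitochondrially encoded subunits of complex I form part of its membrane arm. mt-Nd1 had 2329 and 2129 CPM in C/EBPβ libraries and 2876 and 1980.3 CPM in empty vector libraries (log2 fold change -0.12 ± 0.17, SE), and mt-Nd2 had 1066 and 922 CPM in C/EBPβ and 1299.5 and 872 CPM in empty vector (-0.13 ± 0.18). In both genes the empty vector libraries enclosed the C/EBPβ libraries. mt-Nd5 had 1193 and 911 CPM in C/EBPβ libraries and 1032 and 712 CPM in empty vector libraries, with a log2 fold change of 0.27 ± 0.19 (edgeR adjusted p = 0.339). mt-Nd4 (0.21 ± 0.19) and mt-Nd6 (0.22 ± 0.21), the subunit encoded on the other strand, were of the same order. mt-Nd5 was called higher without the filter on low counts (adjusted p = 0.0421, where 16.9% of all genes were called) and in the fit that omits C/EBPβ replicate 2 (adjusted p = 0.0157). With empty vector replicate 1 left out, mt-Nd4 (adjusted p = 0.0286) and mt-Nd6 (adjusted p = 0.0399) were called higher.

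In complex III, mt-Cytb, the cytochrome b subunit, was with mt-Nd1 the most abundant member per length. It averaged 2667 CPM per kb in C/EBPβ libraries and 2416 in empty vector libraries, and mt-Nd1 2329 and 2537. mt-Cytb had 3294 and 2807 CPM in C/EBPβ libraries and 3283 and 2244 CPM in empty vector libraries (log2 fold change 0.14 ± 0.18, SE). In complex IV, mt-Co1, the subunit with the site of oxygen reduction, had 3568 and 2887 CPM in C/EBPβ libraries and 3178 and 2309 CPM in empty vector libraries (0.23 ± 0.17). The groups overlapped for both. In mt-Cytb, mt-Nd4 and mt-Nd6 the direction turned without empty vector replicate 2, to -0.11, -0.080 and -0.094 on the log2 scale.

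**Figure D3:**
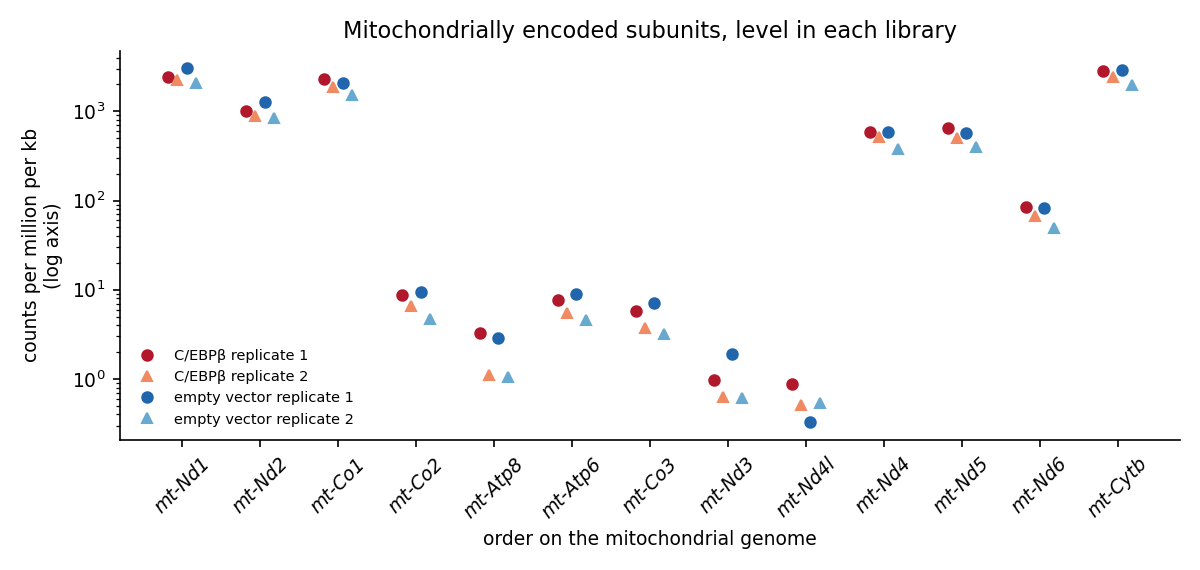
CPM by library totals per kb of summed exon length (y axis, log scale) of the 13 mitochondrially encoded subunits in the order of their genes (x axis), 1 point per library. A run of 6 neighbouring genes, mt-Co2 to mt-Nd4l, lies near or below 10, and mt-Nd6 apart the others lie above 300.

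A run of 6 neighbouring mitochondrial genes had very few counts. mt-Co2, mt-Atp8, mt-Atp6, mt-Co3, mt-Nd3 and mt-Nd4l had between 4 and 412 counts in a library, while the other 7 mitochondrial members had between 970 and 265236. mt-Co2, a catalytic subunit of complex IV, had 6.11 and 4.48 CPM in C/EBPβ libraries and 6.49 and 3.17 CPM in empty vector libraries. mt-Co1, beside it on the same genome and in the same enzyme, was far higher, at 3568 and 2887 CPM in C/EBPβ libraries and 3178 and 2309 CPM in empty vector libraries. mt-Nd4l, with 10 and 14 counts in C/EBPβ libraries and 4 and 6 in empty vector libraries, did not pass the filter.

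These genes have near-identical copies in the nucleus. On chr1:24611535-24616197 of GRCm38, 7 annotated pseudogenes lie in a run, and between 99.0% and 99.9% of the transcripts of mt-Co2, mt-Atp6, mt-Co3, mt-Nd3 and mt-Nd4l match one at 98% identity or more. Of mt-Nd4 63.6% is matched and of mt-Co1 31.3%, and the other 5 well-counted members have no match. mt-Atp8 overlaps mt-Atp6 and has no annotated match of its own. The first 60 bases of mt-Nd3 and of its copy Gm28438 are shown as an example, with capitals at the one base that differs.
mt-Nd3: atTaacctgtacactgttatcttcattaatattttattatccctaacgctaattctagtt
Gm28438: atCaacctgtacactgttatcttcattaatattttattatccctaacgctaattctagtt
Over 345 aligned bases these genes differ by 1 substitution, T3C, with positions counted from the first base of mt-Nd3.

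In the deposited counting, reads that map to more than 1 place were left out, and what part of the RNA of these 6 genes the counts hold was not tested. The 5 pseudogenes matched by these genes held 1780 and 2944 counts in C/EBPβ libraries and 2265 and 972 counts in empty vector libraries, more than the 663 and 1081 counts in C/EBPβ and 797 and 352 in empty vector of the 6 mitochondrial genes. Of the values these 6 genes gave, mt-Co2 had a log2 fold change of 0.11 ± 0.31 (SE), mt-Co3 of -0.11 ± 0.36, mt-Atp6 of -0.03 ± 0.30, mt-Atp8 of -0.02 ± 0.60 and mt-Nd3 of -0.75 ± 0.53. The mitochondrial side of complex IV is therefore described here by mt-Co1, and that of complex V by no well-counted gene. Among the nuclear members, 14 have a copy elsewhere at 98% identity over 100 bases or more, and for 7 of these it covers over 50% of the transcript. None of the 8 called nuclear members is among them.

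The mitochondrially encoded members took 1.22% and 1.04% of all counts in C/EBPβ libraries and 1.26% and 0.873% in empty vector libraries. The groups overlapped (exact permutation test, two-sided p = 1.0). The nuclear members took 0.989% and 1.06% in C/EBPβ libraries and 1.24% and 1.13% in empty vector libraries, which did not overlap, at an exact two-sided p of 0.333, the smallest that 2 against 2 libraries can give. Of the members' own counts, 55.2% and 49.6% were mitochondrial in C/EBPβ libraries and 50.4% and 43.6% in empty vector libraries (exact permutation test, two-sided p = 0.667).

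The empty vector libraries differed from each other in the nuclear subunits as a group. Replicate 1 was above replicate 2 in 75 of 79 nuclear members, at a median log2 ratio of 0.20, against 51.8% of all genes tested and a median of 0.01. Between the C/EBPβ libraries, replicate 1 was above replicate 2 in 27 of 79, at a median of -0.03. The 12 tested mitochondrial members were higher in replicate 1 of both groups, and over the 7 well-counted ones the median log2 ratio was 0.23 in C/EBPβ and 0.55 in empty vector. The median log2 fold change of the nuclear members was -0.0099 without empty vector replicate 1 and -0.22 without empty vector replicate 2. With C/EBPβ replicate 1 left out, 2 nuclear members were called, where 16.0% of all genes were, and with C/EBPβ replicate 2 left out 7, where 22.1% were. With empty vector replicate 1 left out, 2 nuclear members were called, where 19.8% of all genes were, and with empty vector replicate 2 left out 18, where 20.2% were.

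The difference between the empty vector libraries went with the length of the coding sequence. Over 10242 protein-coding genes with at least 5 CPM, the rank correlation of coding length with the log2 ratio of the empty vector libraries was -0.64, and over 78 nuclear members it was -0.66. For the ratio of the C/EBPβ libraries it was 0.14 over all these genes and -0.50 over the members. For the log2 fold change of C/EBPβ over empty vector it was 0.14 over all these genes and -0.355 over the members. Genes of one library share its depth and preparation, so these are descriptions. The 56 members with under 600 coding bases were all higher in empty vector replicate 1, at a median log2 ratio of 0.24, and the 22 longer ones had a median of 0.09, with 19 higher. Their median log2 fold changes of C/EBPβ over empty vector were -0.10 for the short members and -0.20 for the long ones, with 3 lower and 1 higher among the short and 3 lower among the long. Whether length or RNA quality has a part in these fold changes was not tested.

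**Figure D4:**
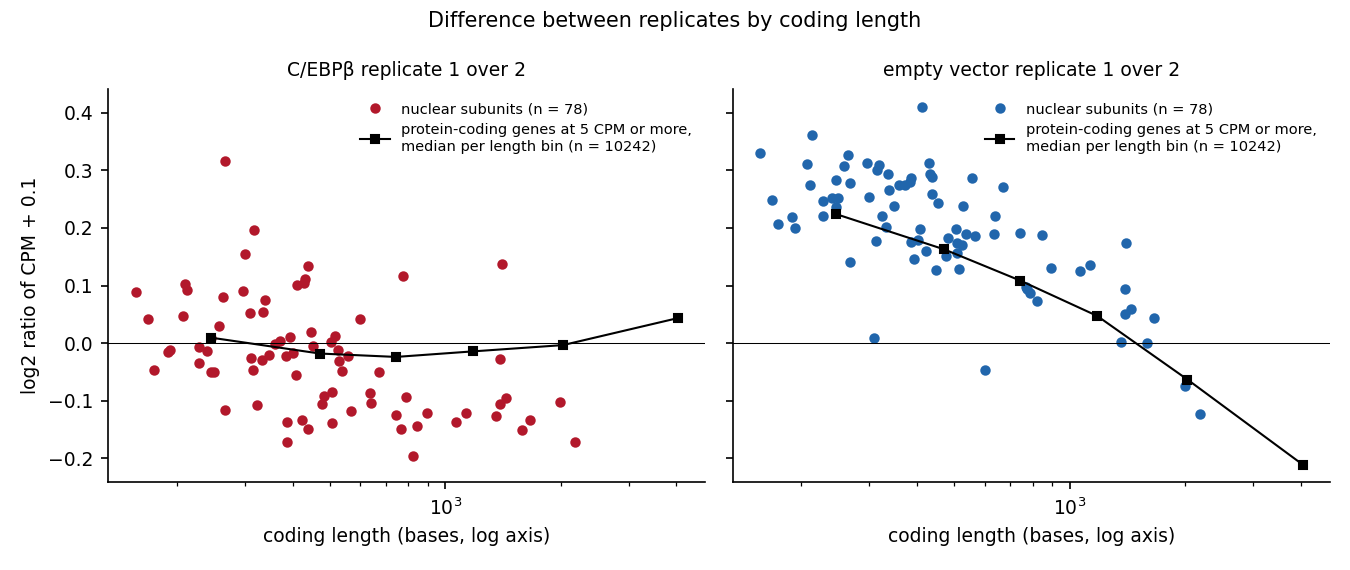
Log2 ratio of replicate 1 over replicate 2 (y axis) by coding length (x axis, log scale) for 78 nuclear subunits, with the C/EBPβ libraries on the left and the empty vector libraries on the right. The squares are medians over all protein-coding genes at 5 CPM or more by length, and the short subunits lie above 0 in the empty vector with them.

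In the authors' deposited table of this comparison, 16 nuclear members were lower and 1 higher at an adjusted p under 0.05, of 80 with an adjusted p, where 26.0% of all 16596 genes with one were called and 13.6% were called lower. The 8 members called here were all among them. For Uqcrfs1 the authors' deposited table gives a log2 fold change of -0.53 and for Ndufb7 of 0.47. No member of the 13 mitochondrial ones was called in the authors' deposited table, and the median log2 fold change was -0.16 for the nuclear and 0.09 for the mitochondrial members. For Cox8b the authors' deposited table has a base mean of 245 normalised counts, although none of the 4 libraries held more than 13 counts, so its base mean cannot come from these counts alone.

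Around the respiratory chain, the groups of genes that build and feed mitochondria differed in how many were called. They are set against 24.9% of all genes called, 14.1% higher and 10.8% lower. Of 17 tested electron carriers and subunits that the symbols leave out, 1 rose and 2 fell, among them Cyc1, the cytochrome c1 subunit of complex III, with 192 and 204 CPM in C/EBPβ libraries and 255 and 233 CPM in empty vector libraries (log2 fold change -0.30, edgeR adjusted p = 0.0392). Coq9, needed for ubiquinone synthesis, rose with 0.54 (adjusted p = 0.00430). Gpd2, which passes electrons from cytosolic glycerol phosphate to ubiquinone, fell with -0.58 (adjusted p = 0.00316). Of 45 assembly factors 3 fell, or 6.67%, and none rose, with a median of -0.07, and Coa7 (-0.37, adjusted p = 0.0377) and Coa3 (-0.36, adjusted p = 0.0425) act on complex IV.

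Genes of protein import and inner membrane organisation had 11 of 30 called lower, or 36.7% against 10.8% of all genes, and none higher, with a median log2 fold change of -0.24, with Tomm5 of the outer membrane translocase at -0.65 (edgeR adjusted p = 0.00202) and Chchd3 of the cristae junctions at -0.36 (adjusted p = 0.0168). For proteins of the mitochondrial ribosome 8 of 77 fell, or 10.4%, and none rose, at a median of -0.14, with Mrpl38 at -0.56 and Mrps27 at -0.54. In the list for mitochondrial DNA and RNA 3 of 31 fell, or 9.68%, among them Tfam, which packages and transcribes mitochondrial DNA (-0.36, adjusted p = 0.0167), and Fastkd2 (-0.42, adjusted p = 0.0246). Of 9 tested mitochondrial rRNA and tRNA genes, mt-Tm alone was called, at under 1 CPM in every library.

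Among 16 tested regulators, 1 rose and 3 fell, or 6.25% and 18.8%, against 14.1% and 10.8% of all genes. Ppargc1a, the PGC-1α coactivator that drives mitochondrial genes in muscle, had 0.210 and 0.305 CPM in C/EBPβ libraries and 1.31 and 1.19 CPM in empty vector libraries, low in both groups (log2 fold change -2.20, edgeR adjusted p = 0.00128). The C/EBPβ libraries alone would not have brought Ppargc1a through the filter on low counts. Ppargc1b fell with -0.76 (adjusted p = 0.0289) and Ppard rose with 0.27 (adjusted p = 0.0456). Of 25 genes of pyruvate oxidation and the citric acid cycle 4 rose and 2 fell, or 24.0% called against 24.9% of all genes, with Cs, citrate synthase, at -0.46 (adjusted p = 0.00896), Idh3a at -0.31, Pdk1, which inhibits pyruvate dehydrogenase, at 0.90 (adjusted p = 0.000196) and Pcx at 0.55. Of 21 glycolysis genes 5 rose and 3 fell, or 38.1% called, led by the lactate transporters Slc16a3, which rose with 1.15, and Slc16a1, which fell with -0.82.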

How the data were processed

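RNA of 4 libraries of C2C12 myoblasts was read from deposited counts of fragments per gene, which, per the file headers, the authors made with featureCounts 1.5.1 in paired, reverse-stranded mode on GENCODE M12, without multi-mapping or ambiguous reads. The submitters' processing notes name HISAT2 2.0.4, featureCounts 1.4.6 and DESeq2, and GRCm38. Which featureCounts version is right was not settled. The authors' deposited table of the comparison holds log2 fold changes with their errors, p-values, a base mean (a signal) and a test statistic (a score). The sources used here do not give the libraries behind it.

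Counts of 49585 genes were filtered with filterByExpr of edgeR 4.0.16 (minimum count 10, minimum total 15), which left 15078, and tested in R 4.3.3 with TMM scaling and the quasi-likelihood test of edgeR, 2 libraries against 2, with Benjamini-Hochberg adjustment over all genes tested and calls at 0.05. CPM use these scaled totals, and shares, ratios and per-kilobase values in the figure of mitochondrial genes use library totals. Depth is given with the libraries, and 1 count equals 0.0109 to 0.0266 CPM. Symbols came from the deposited table, and for 6 members from reference names. 6 pseudogene symbols were left out. Near-identical copies were sought with BLAST against GENCODE M21 transcripts, and coding lengths come from that annotation. Replicate ratios used a pseudocount of 0.1 CPM.

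Members and gene lists were chosen with earlier results of these data known. Named in the text are Cebpb, all mitochondrial members, complex II, subunits with paralogs, and per complex the called, the most abundant per length and the most changed members, with up to 2 called genes per direction of each related list. A regulator whose motif was searched, a member with a motif match and a member in a count of 5 or fewer were named besides. Alternatives were other scalings, filters and tests (DESeq2 1.42.0, limma-voom of limma 3.58.1), a replicate block and each library left out. The fits were tested on simulated data.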

Additional observations from a re-analysis of the deposited data

How the results depend on the processing

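With each library left out in turn, the number of nuclear members called ran from 2 (without C/EBPβ replicate 1 and without empty vector replicate 1) to 18 (without empty vector replicate 2), of mitochondrial members from 0 to 2 and of all genes from 2493 to 3462. The median log2 fold change ran from -0.22 to -0.0099 for nuclear and from -0.31 to 0.53 for mitochondrial members, and the difference in the mitochondrial share of all counts from -0.13 to 0.25 percentage points, against 0.0612 with all libraries. That share was left out library by library after seeing the data. A group left with 1 library is assumed to vary like the other. Against a 1.2-fold change, 2 nuclear members and 2216 genes were called. Without the filter, 1 mitochondrial member, mt-Nd5, was called. The replicate number is not said to mark a shared culture, and the correlation of same-numbered deviations was 0.242 over 10467 genes. With the replicate block, 12 nuclear members, 1 mitochondrial member, again mt-Nd5 (adjusted p = 0.0498), and 4536 genes were called. The nuclear calls then gained were Cox5a, Cox7a2l, Ndufa12 and Ndufs7. Directions turned for the following members, none of which was called with all 4 libraries. mt-Atp8 had a log2 fold change of 0.00054 without the filter, 0.15 with DESeq2, 0.17 with C/EBPβ replicate 2 thinned and 0.18 with the replicate block, and mt-Atp6 of 0.026 with thinning and 0.041 with the block. With each library left out, log2 fold changes ran from -0.37 to 0.17 for mt-Nd1, -0.39 to 0.19 for mt-Nd2, -0.31 to 0.72 for mt-Co2, -0.81 to 0.92 for mt-Atp8, -0.43 to 0.53 for mt-Atp6, -0.57 to 0.59 for mt-Co3, -1.32 to 0.31 for mt-Nd3, -0.080 to 0.55 for mt-Nd4, -0.094 to 0.62 for mt-Nd6, -0.11 to 0.44 for mt-Cytb, -0.17 to 0.062 for Ndufa4, -0.011 to 0.19 for Uqcrb, -0.087 to 0.21 for Cox6a1, -0.094 to 0.16 for Cox7a2, -0.15 to 0.11 for Cox7b and -0.26 to 0.047 for Cox8a. The causes were not tested. The other members that the naming rule takes kept their direction in each fit that held them.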
